A study of Mus musculus with 6 samples.

Results

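Ion-pumping ATPases were examined in ribosome profiling libraries of MIN6, a cell line from a mouse insulinoma that still makes and secretes insulin. The members were the genes of the deposited count table whose symbols begin with Atp1a, Atp1b, Atp2a, Atp2b, Atp2c, Atp6v, Atp6ap, Atp7a, Atp7b or Atp13a, which gave 49 of 21652 listed genes. They comprise 20 P-type pumps, 4 beta subunits of the Na,K-ATPase, and 25 genes of the V-ATPase (9 of the membrane sector V0, 13 of the cytosolic sector V1 and 3 accessory genes). Of these, 40 had enough counts to be tested. The 2 genotypes are sgLTN1, a guide RNA against Ltn1, and sgNT, read as a control guide with no target, with 3 libraries each. No other treatment is named, and all 6 libraries carry the same batch label. The labels do not say whether a group was 1 clone or a pool, nor whether its libraries are separate cultures. The p-values therefore rest on library-to-library spread, which may be technical.

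Ion pumps spend ATP to move ions against their gradients. P-type pumps are long membrane proteins that pass through a phosphorylated intermediate, and their chains are inserted into the endoplasmic reticulum (ER) membrane while they are being translated. The V-ATPase is a rotary machine in which the cytosolic V1 sector hydrolyses ATP and drives a proton-carrying ring in the V0 sector. V1 subunits are made as soluble proteins, whereas V0 subunits, apart from the peripheral d subunit, span the membrane. In beta cells the V-ATPase acidifies insulin granules, calcium pumps of the ER and plasma membrane shape the calcium signals that trigger secretion, and the Na,K-ATPase maintains the ionic gradients on which membrane potential rests. Ltn1 encodes Listerin, the E3 ubiquitin ligase that marks incomplete chains on stalled large ribosomal subunits.

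The libraries held between 4373467 and 11198735 counts, with 11198735 and 9683201 in sgLTN1 libraries 1 and 2 and at most 4993245 in sgNT libraries 1 and 3 and sgLTN1 library 3. Pump genes took 2.31% to 2.69% of the counts in a library. Ltn1 itself read 143, 145 and 141 CPM (counts scaled to a common library size with TMM) in the sgNT libraries and 65.3, 71.5 and 64.9 CPM in the sgLTN1 libraries. CPM is not divided by gene length, so levels are compared between libraries and not between genes. Of 9 beta-cell markers 8 were tested, Ins1, Ins2 and Iapp among them, but Slc2a2, the glucose transporter of mouse beta cells, read 0.738 and 0.747 CPM and did not pass the filter. None of 5 acinar, 3 duct or 3 endothelial markers passed it, and the summed endothelial markers lay between 1.36 and 2.47 CPM in every library. All 3 fibroblast markers passed at low levels, with sums from 10.4 to 11.2 CPM in sgNT and from 6.95 to 11.1 CPM in sgLTN1, and of 3 leukocyte markers Cd68 passed, at 30.4 and 26.4 CPM. The alpha-cell hormone gene Gcg was present, at 562 CPM in sgNT and 566 CPM in sgLTN1. The summed delta-cell markers, mostly the somatostatin gene Sst, lay between 30.5 and 33.0 CPM in sgNT and between 41.4 and 48.7 CPM in sgLTN1. The pancreatic polypeptide gene Ppy lay between 2.06 and 3.96 CPM in sgNT and between 4.97 and 6.95 CPM in sgLTN1. The part of these other cell types' markers in the results was not tested. Footprints reflect the amount of an mRNA and its occupancy by ribosomes, which these libraries cannot separate, and in bulk lysates fewer cells with a transcript and fewer footprints per cell cannot be told apart.

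Tested with edgeR (quasi-likelihood, Benjamini-Hochberg adjustment over all 12782 tested genes), no pump gene passed an adjusted p of 0.05. Of all tested genes 23 (0.18%) did, 11 higher (0.0861%) and 12 lower (0.0939%) in sgLTN1. With libraries scaled by their total counts in place of TMM, 42 genes passed, 8 of them higher, and again no pump gene. DESeq2 on the same counts gave an adjusted p to 27 members and called 5 of them, all higher and all P-type, where it called 227 of 2697 genes (8.42%, with 6.79% higher). In edgeR the smallest adjusted p among the members was 0.126. At an unadjusted p below 0.05, 13 of the 40 members were higher in sgLTN1, against 8% of all tested genes, and 1 was lower, against 7.56%. Fold changes were small throughout, from -0.43 to 0.57 on the log2 scale.

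The 17 tested P-type pumps all lay above 0 on the log2 fold change scale, and their median was 0.26. Of the 8 tested V0 genes 7 lay above 0, with a median of 0.10, and of the 10 tested V1 genes 4 did, with a median of -0.03. Over all tested genes 47.3% lay above 0 and the median was -0.02. This share differed with CPM, and was 81.4% among genes over 8 on the log2 CPM scale, where 16 of the 40 members lay. Scaling by total counts moved the median of all tested genes by -0.08 from its value with TMM. It gave 16 of 17 P-type, 5 of 8 V0 and 1 of 10 V1 genes above 0, with medians of 0.18, 0.02 and -0.11. These counts and medians describe the lists, which were not tested as sets. Among P-type pumps 11 of 17 had an unadjusted p below 0.05, all of them higher, while among V1 genes none did in either direction. The groups did not overlap, with all 3 sgLTN1 libraries above or below all 3 sgNT libraries, for 9 of the 40 members, against 20.2% of all tested genes. Of these, 8 were higher and 1 was lower in sgLTN1, against 10.1% of all tested genes in either direction. The 9 comprised 6 P-type pumps, all higher, and 3 V0 genes, of which 2 were higher and 1 was lower, and no V1 gene. For Atp6v0a2 and Atp2a1 the groups nearly met. The total of 9 of 40 was near the share of all tested genes, and the split by class was not tested.

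**Figure D1:**
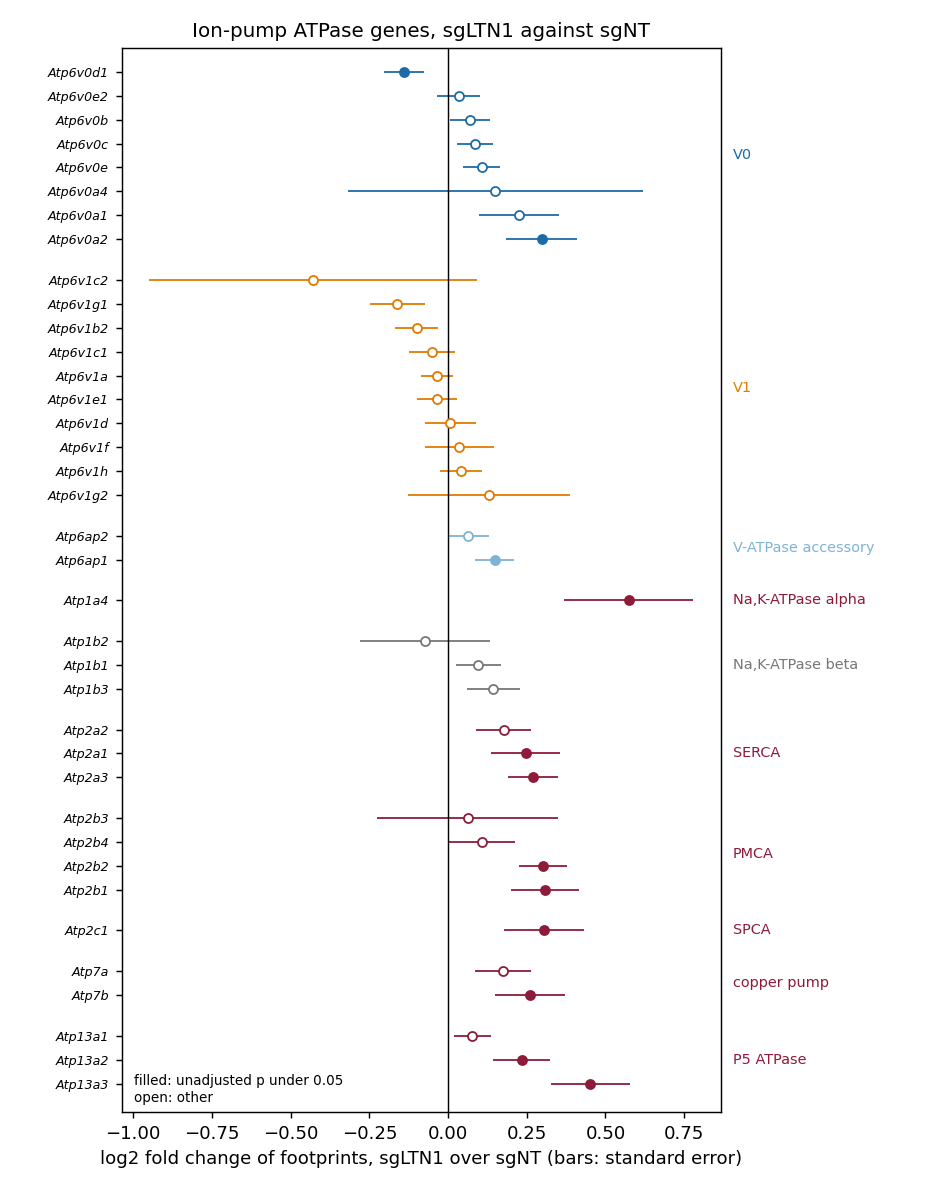
Log2 fold change of footprints (sgLTN1 over sgNT, horizontal axis) for the tested ion-pump genes reported here, grouped by class, with bars showing the standard error of the edgeR fit. Filled points have an unadjusted p below 0.05. The P-type pumps drawn (dark red) lie to the right of 0 (Atp2b3 at -0.02 under total-count scaling), whereas the V1 genes (orange) lie on either side of it.

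For the genes that follow, the first value in parentheses after the CPM values is the log2 fold change of sgLTN1 over sgNT from edgeR, with its standard error and adjusted p, and a gene said to lie at a value lies there on this scale. Means are given ± SD over the 3 libraries of a group.

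The Na,K-ATPase exports sodium and imports potassium, and consists of a catalytic alpha and a supporting beta subunit. Atp1a4, the isoform of sperm, had the highest fold change of all members at 0.57 (SE 0.20, adjusted p = 0.216), on 134 counts in sgNT and 298 in sgLTN1, and its groups overlapped (6.19 to 10.1 and 9.56 to 14.0 CPM). Conserved stretches are shared within the pump families, so counts of the scarcer isoforms are uncertain where a footprint could be assigned to a related gene.

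The beta subunits, single-span glycoproteins that bring the alpha subunit to the cell surface, had a median of 0.10, which was 0.0216 with total-count scaling and -0.00302, with 1 of 3 above 0, once the trend of fold change with abundance over all tested genes was subtracted. Atp1b1 read 1319, 1266 and 1139 CPM in sgNT and 1334, 1413 and 1232 CPM in sgLTN1, with interleaved values (0.10, SE 0.07, adjusted p = 0.564, and -0.02 with the trend removed). Atp1b3 read 793 ± 57.5 and 876 ± 96.3 CPM (0.14, SE 0.08, adjusted p = 0.443), and Atp1b2 5.72 ± 1.02 and 5.27 ± 0.905 CPM (-0.07, SE 0.21, adjusted p = 0.946).

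SERCA pumps load calcium into the ER, and all 3 genes lay above 0. Atp2a2 (ENSMUSG00000029467.16), which encodes the housekeeping SERCA2, read 4522, 4409 and 3717 CPM in the sgNT libraries and 4964, 5118 and 4208 CPM in the sgLTN1 libraries. Library 3 was the lowest of either group, and sgLTN1 library 3 fell within the sgNT range. The log2 fold change of Atp2a2 was 0.18 (SE 0.09, adjusted p = 0.367). Atp2a3 (ENSMUSG00000020788.16), the SERCA3 gene that beta cells also use, read 397, 367 and 326 CPM and then 454, 456 and 402 CPM, with no overlap between groups. Its log2 fold change was 0.27 (SE 0.08), a 1.21-fold difference, with adjusted p = 0.165. Atp2a1, the SERCA1 gene of fast muscle, read 28.9, 30.3 and 28.3 CPM and then 33.0, 40.0 and 30.4 CPM (0.25, SE 0.11, adjusted p = 0.313). The groups of Atp2a1 did not overlap, although 30.3 and 30.4 CPM nearly met.

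PMCA pumps expel calcium across the plasma membrane. Atp2b2 (ENSMUSG00000030302.18) read 123, 114 and 107 CPM in the sgNT libraries and 150, 143 and 130 CPM in the sgLTN1 libraries, so that the groups were separate. It held the smallest p of the pump genes, with a log2 fold change of 0.30 (SE 0.08), an unadjusted p of 0.00248 and an adjusted p of 0.126. Atp2b1 (ENSMUSG00000019943.11), the widely expressed PMCA1 gene, read 587, 565 and 487 CPM and then 739, 733 and 556 CPM. Here sgLTN1 libraries 1 and 2 stood above all controls and library 3 did not (0.31, SE 0.11, adjusted p = 0.206). Atp2b4 lay at 0.11 (SE 0.11, adjusted p = 0.681). Atp2b3 lay at 0.06 (SE 0.29, adjusted p = 0.954), although its mean was 5.87 CPM in sgNT and 5.72 CPM in sgLTN1. Its sgLTN1 library 3 read 2.67 CPM, and a fit on counts gives deeper libraries more weight than a plain mean does.

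The Golgi calcium and manganese pump gene Atp2c1 read 63.3, 67.7 and 48.5 CPM in sgNT and 81.4, 76.9 and 63.1 CPM in sgLTN1 (0.30, SE 0.13, adjusted p = 0.279). Its sgLTN1 library 3 lay just below sgNT library 1. Taking SERCA, PMCA and SPCA together, sgLTN1 libraries 1 and 2 exceeded all 3 controls for all 8 tested calcium pumps, against 17.9% of all tested genes, while sgLTN1 library 3 exceeded them for 3, against 27.1%. These orders were counted after the values had been seen.

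Copper pumps deliver copper to enzymes in the secretory pathway and expel it from the cell. Atp7b read 14.2, 14.8 and 14.9 CPM in sgNT and 17.2, 19.3 and 15.8 CPM in sgLTN1, with no overlap (0.26, SE 0.11, adjusted p = 0.296). Atp7a read 138, 136 and 115 CPM and then 148, 158 and 133 CPM (0.17, SE 0.09, adjusted p = 0.376), where sgLTN1 library 3 fell within the control range.

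P5 ATPases handle substrates other than small ions. Atp13a3 (ENSMUSG00000022533.15), a polyamine transporter, read 105, 94.5 and 75.9 CPM in sgNT and 137, 133 and 104 CPM in sgLTN1. sgLTN1 libraries 1 and 2 were above the controls and library 3 was level with sgNT library 1. The log2 fold change of Atp13a3 was 0.45 (SE 0.13), a 1.37-fold difference, with adjusted p = 0.149. Atp13a2, the lysosomal polyamine exporter, was separate between groups, at 25.7, 27.6 and 23.9 CPM against 31.7, 30.2 and 29.2 CPM (0.23, SE 0.09, adjusted p = 0.250). Atp13a1, which pulls misinserted helices out of the ER membrane, lay lower in the class, at 571 ± 23.8 and 603 ± 21.6 CPM (0.08, SE 0.06, adjusted p = 0.575).

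**Figure D2:**
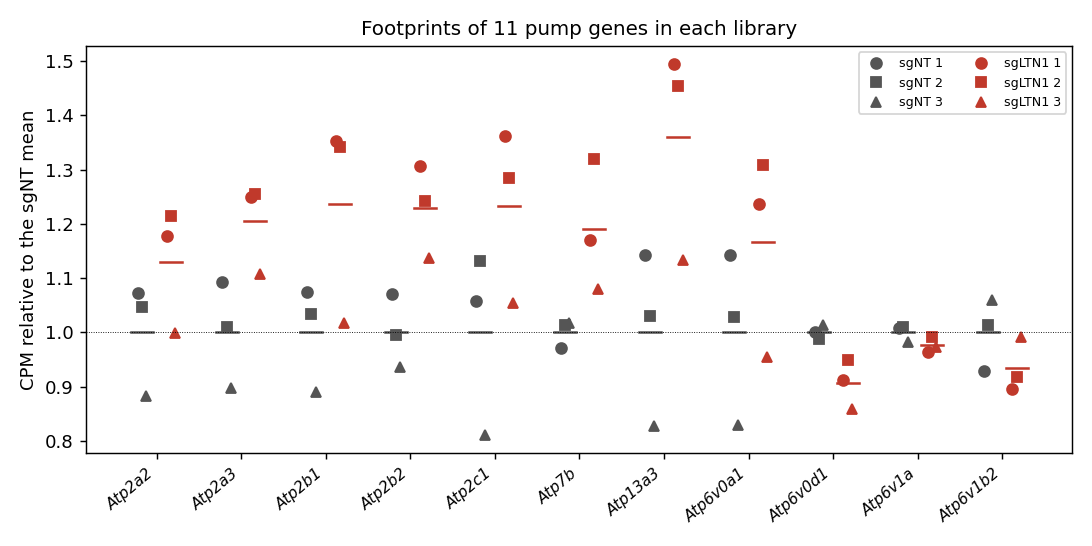
Footprints of 11 pump genes in each library (CPM divided by that gene's sgNT mean, vertical axis), with sgNT in grey, sgLTN1 in red, library numbers by marker shape and group means as short lines. For the P-type genes at the left, sgLTN1 libraries 1 and 2 lie above the controls and library 3 (triangles) is the lowest sgLTN1 value, whereas the sgLTN1 means of the V1 genes Atp6v1a and Atp6v1b2 lie just below the control mean.

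In the V0 sector, the a subunits form the proton path beside the ring and decide in which organelle the pump resides. Atp6v0a1 read 425, 382 and 308 CPM in sgNT and 460, 487 and 355 CPM in sgLTN1 (0.22, SE 0.13, adjusted p = 0.434). Library 3 was again the lowest of each group. Atp6v0a2 (ENSMUSG00000038023.13), the isoform of the Golgi, read 34.2, 32.4 and 26.3 CPM and then 41.4, 37.8 and 34.3 CPM, with the groups just separate. Its log2 fold change was 0.30 (SE 0.11, adjusted p = 0.234), the highest of V0. Atp6v0a4, the kidney isoform, held 22 and 36 counts (0.15, SE 0.47, adjusted p = 0.924). The a3 gene Tcirg1, which the naming of the members leaves out, read 50.5 ± 6.75 and 57.8 ± 5.37 CPM (0.20, SE 0.11, adjusted p = 0.400).

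The proton ring lay nearer to 0. Atp6v0c, the main ring subunit, read 1091, 1059 and 1053 CPM in sgNT and 1073, 1190 and 1135 CPM in sgLTN1 (0.09, SE 0.06, adjusted p = 0.512), with sgLTN1 library 1 inside the control range. Atp6v0b, which adds 1 distinct subunit to the ring, lay at 0.07 (SE 0.06, adjusted p = 0.654), and the small e subunit genes Atp6v0e and Atp6v0e2 at 0.11 (SE 0.06, adjusted p = 0.415) and 0.03 (SE 0.07, adjusted p = 0.867).

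Atp6v0d1 (ENSMUSG00000013160.8) went the other way. The d subunit couples the ring to the central stalk and does not cross the membrane. It read 188, 186 and 191 CPM in sgNT and 172, 179 and 162 CPM in sgLTN1, each sgLTN1 library below each control. The log2 fold change was -0.14 (SE 0.06), with an unadjusted p of 0.049 and an adjusted p of 0.318, and it was the only V0 gene below 0 and the only member lower at an unadjusted p below 0.05.

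The more abundant V1 genes lay close to 0. Atp6v1a (ENSMUSG00000052459.14), the catalytic A subunit, read 596, 597 and 580 CPM in sgNT and 570, 586 and 576 CPM in sgLTN1, with a log2 fold change of -0.03 (SE 0.05, adjusted p = 0.805). Atp6v1b2, the B subunit that alternates with A in the head, read 279, 305 and 319 CPM and then 269, 276 and 298 CPM (-0.10, SE 0.07, adjusted p = 0.537). In either gene the groups overlapped. Among the stalk and regulatory subunits, Atp6v1h lay at 0.04 (SE 0.07, adjusted p = 0.817), Atp6v1e1 at -0.03 (SE 0.06, adjusted p = 0.844), Atp6v1d at 0.01 (SE 0.08, adjusted p = 0.988), Atp6v1f at 0.04 (SE 0.11, adjusted p = 0.924) and Atp6v1c1 at -0.05 (SE 0.07, adjusted p = 0.801). Atp6v1g1 lay lowest of the V1 genes above 10 CPM, at -0.16 (SE 0.09, adjusted p = 0.411). The ends of the V1 range were scarce isoforms, Atp6v1c2 at -0.43 (SE 0.52, adjusted p = 0.750) and Atp6v1g2 at 0.13 (SE 0.26, adjusted p = 0.890), measured on 25 and 55 counts in sgNT.

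Accessory subunits assist the assembly and sorting of V0. Atp6ap1 (ENSMUSG00000019087.14), which encodes Ac45, read 2129, 1977 and 1908 CPM in sgNT and 2190, 2360 and 2112 CPM in sgLTN1, where library 3 fell just short of sgNT library 1. Its log2 fold change was 0.15 (SE 0.06, adjusted p = 0.286). Atp6ap2, the prorenin receptor, lay at 0.06 (SE 0.06, adjusted p = 0.687), with 5934 ± 381 and 6206 ± 388 CPM.

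V-ATPase genes are known targets of TFEB, a regulator of lysosome genes that binds the letters CACGTG. RefSeq promoters of build GRCm38.p6 were matched by symbol for 34 of the 49 members, and the 250 bases before each start were searched for this motif, which reads the same on both strands. It was present in 2 of 16 V0 and V1 genes, 1 of 13 P-type pumps and 4 of 34 members, against 6.86% of 27025 genes with a promoter. The sites are shown, with the motif in capitals, because they include a V0 gene, a V1 gene and a P-type pump whose footprints are given here, at Atp6v0b (chr4:117887339-117887368, minus strand), Atp6v1a (chr16:44139375-44139400, minus strand), Atp7a (chrX:106027127-106027152, plus strand) and Atp1b3 (chr9:96363921-96363946, minus strand).
Atp6v0b: ggtCACGTGgggtcggcgcatCACGTGcgc
Atp6v1a: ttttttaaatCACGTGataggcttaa
Atp7a: tgctccctttCACGTGacgtggacca
Atp1b3: gagcggggcaCACGTGctgccggttc
The log2 fold changes of these 4 genes ran from -0.03 to 0.17, within the range of members without the motif. A match is a description of the letters and does not show that a factor binds.

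The sums of the sectors were set beside each other in each library. V1 genes summed to 1703, 1699 and 1686 CPM in sgNT and 1634, 1687 and 1648 CPM in sgLTN1. V0 genes summed to 2395, 2326 and 2218 CPM and then 2420, 2605 and 2372 CPM. V0 over V1 on the log2 scale was 0.49, 0.45 and 0.40 in the controls and 0.57, 0.63 and 0.53 in sgLTN1, so every sgLTN1 library lay above every control, with a difference of 0.13 between the means. P-type over V1 on the same scale was 2.63, 2.61 and 2.41 in sgNT and 2.89, 2.91 and 2.66 in sgLTN1, a difference of 0.26, with sgLTN1 library 3 just above sgNT library 1. The sums weigh members by their counts, and no test was made on them.

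Library 3 of each group read low for the P-type pumps. In sgNT library 3, 13 of 17 P-type pumps had their lowest control value, against 36.6% of all tested genes, and in sgLTN1 library 3, 14 of 17 had their lowest sgLTN1 value, against 39%. Of the 8 V0 genes, 6 were lowest in sgNT library 3 among the controls. Only 4 of the 8 were lowest in sgLTN1 library 3 among the sgLTN1 libraries. The median P-type pump, as a log2 deviation from its own mean, stood at -0.02, -0.08 and -0.24 in sgNT libraries 1 to 3 and at 0.18, 0.20 and -0.03 in sgLTN1 libraries 1 to 3. sgNT library 1 and sgLTN1 library 3 were thus nearly level. V1 genes stood at 0.05, -0.00 and 0.02 and then -0.09, 0.01 and -0.00. The 2 high libraries are also the 2 deepest, and the part of depth in the result was not tested. With both libraries 3 left out, all 17 P-type pumps stayed above 0 with a median of 0.29, the V1 median was -0.04, and 5 members passed, Atp2a3, Atp2b1, Atp2b2 and Atp13a3 among them, where 3.89% of all genes tested that way did. With sgLTN1 library 3 alone left out, 4 members passed, Atp2b1, Atp2b2 and Atp13a3 among them, where 2.47% did.

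**Figure D3:**
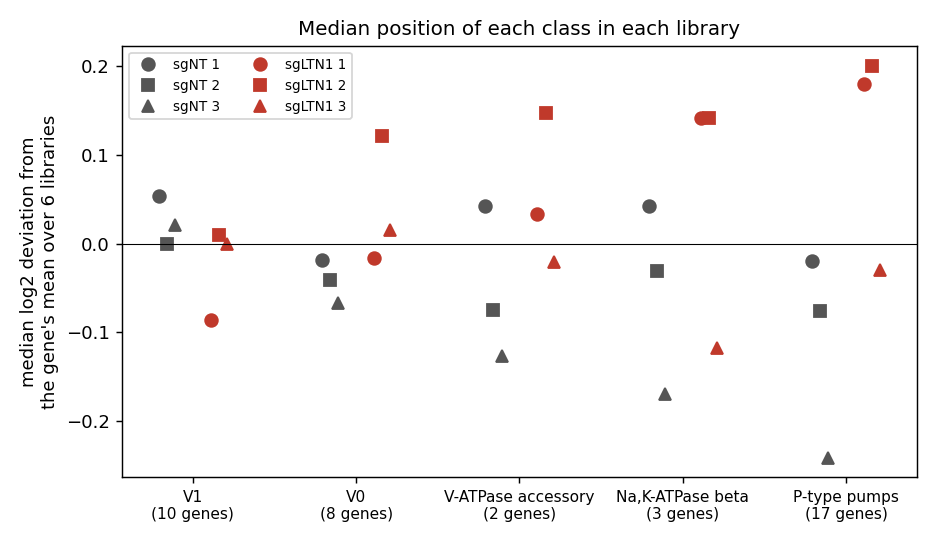
Median log2 deviation of each class from its genes' means over the 6 libraries (vertical axis), 1 point per library, sgNT in grey and sgLTN1 in red. P-type pumps span from -0.24 in sgNT library 3 to 0.20 in sgLTN1 library 2, with sgLTN1 library 3 level with sgNT library 1, while V1 genes stay between -0.09 and 0.05.

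Fold changes in these libraries were higher for genes with higher CPM, and classes differ in CPM. Abundance here means CPM, which is not divided by gene length. The log2 fold change had a median of -0.11 among genes under 2 on the log2 CPM scale and of 0.14 among genes over 8. In this top range were 16 of the 40 members, with a median of 0.10. Of these 14 lay above 0, against 81.4% of all tested genes in the range. When this trend was subtracted, 25 of 40 members lay above 0, against 6578 of 12782 tested genes. The P-type median was then 0.22 and 16 of 17 genes stayed above 0, the exception being Atp13a1 at -0.01. The V0 median became 0.02 with 5 of 8 above 0, and the V1 median -0.08 with 2 of 10. Single genes moved by different amounts: Atp2b2 went to 0.26, Atp13a3 to 0.42 and Atp2a3 to 0.19, but Atp2a2, in the most abundant range, to 0.02.

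**Figure D4:**
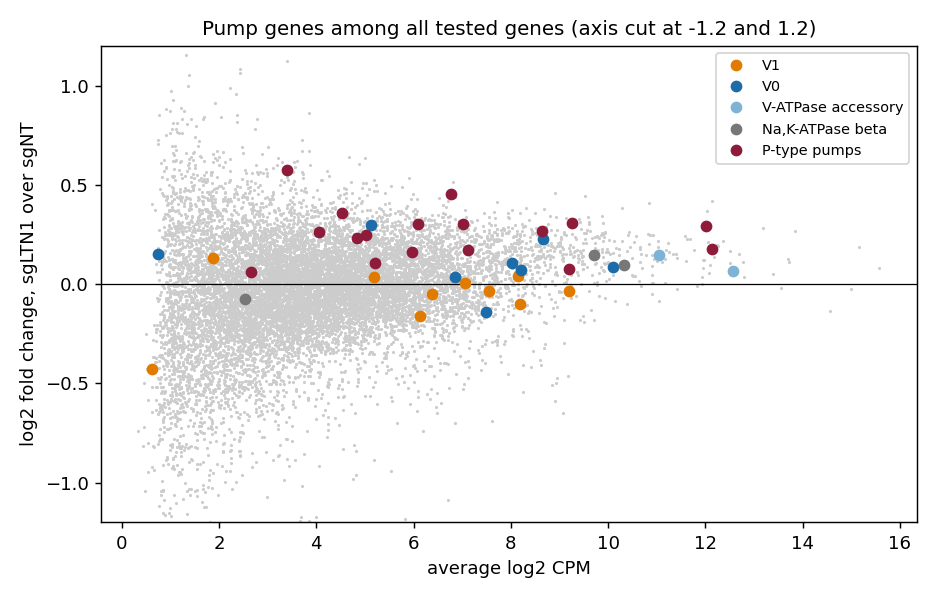
Log2 fold change (sgLTN1 over sgNT, vertical axis) against average log2 CPM (horizontal axis), with all tested genes as grey dots and the pump classes in colour. Grey dots drift upward to the right, and P-type pumps (dark red) lie above 0 at every abundance (Atp2b3 at -0.02 under total-count scaling), whereas V1 genes (orange) lie between -0.16 and 0.04 once above 4 on the horizontal axis.

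In the authors' deposited table, made with DESeq2, 27 members had an adjusted p and 5 of them passed 0.05, all higher in sgLTN1, against 8.42% of the 2697 genes with an adjusted p there (6.79% higher). All 5 were P-type pumps. In the authors' deposited table Atp13a3 rose by 0.47 (SE 0.13, adjusted p = 0.0143), Atp2b2 by 0.32 (SE 0.10, adjusted p = 0.0296), Atp2a3 by 0.29 (SE 0.10, adjusted p = 0.0381) and Atp2b1 by 0.33 (SE 0.11, adjusted p = 0.0470). The edgeR log2 fold changes of these genes were 0.27 to 0.45, with adjusted p from 0.126 to 0.206. The DESeq2 test on the same counts, given above, repeats the authors' comparison and adds no separate evidence.

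Other ATP-driven pumps and partners of the pumps were followed in lists. The P4 flippases, P-type relatives that move lipids in place of ions, with their Tmem30 subunits, had 9 of 15 tested members above 0 and a median of 0.10. Atp8a1 lay at 0.29 (SE 0.11, adjusted p = 0.234), and the scarce chaperone subunit gene Tmem30b at -0.67 (SE 0.25, adjusted p = 0.241). The other tested subunit gene, Tmem30a, lay at 0.26 (SE 0.11, adjusted p = 0.312). The mitochondrial F-type ATP synthase, the rotary relative of the V-ATPase that makes ATP, had 2 of 18 above 0 and a median of -0.13, with its inhibitor gene Atp5if1 at -0.35 (SE 0.10, adjusted p = 0.153) and Atp5mj at -0.24 (SE 0.08, adjusted p = 0.204). No gene of these lists passed in edgeR over all genes, nor did any of the partners that follow. The gastric and colonic proton pump genes Atp4a and Atp12a were at -0.01 (SE 0.21, adjusted p = 0.996) and -0.40 (SE 0.32, adjusted p = 0.604), on few counts.

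Partners of the V-ATPase were mixed, with 16 of 26 above 0 and a median of 0.10. The groups did not overlap for 5 higher and 2 lower partners of the 26, against 10.1% of all tested genes in either direction. The 2 smallest p-values were of genes below 0, closely followed by Ostm1 above 0, at 0.21 (SE 0.08, adjusted p = 0.250). Lamtor4, a subunit of the lysosomal Ragulator, lay at -0.32 (SE 0.12, adjusted p = 0.240) and Rogdi, a component of the rabconnectin complex that promotes V-ATPase assembly, at -0.22 (SE 0.08, adjusted p = 0.248).

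Stim1, the ER sensor that opens calcium entry when stores run low, read 84.4, 77.2 and 75.7 CPM in sgNT and 102, 105 and 95.3 CPM in sgLTN1, with separate groups (0.35, SE 0.07, adjusted p = 0.0908). Calm2, a gene for calmodulin, which activates PMCA pumps, read 144, 149 and 175 CPM and then 129, 121 and 124 CPM (-0.32, SE 0.08, adjusted p = 0.126). The calcium partners had 9 of 18 above 0 and a median of -0.02. Copper handling genes had 3 of 7 above 0 and a median of -0.17. Their highest member, the copper importer gene Slc31a1, read 123, 112 and 114 CPM in sgNT and 153, 159 and 139 CPM in sgLTN1 (0.38, SE 0.07, adjusted p = 0.0786). The copper chaperone gene Atox1 lay at -0.21 (SE 0.11, adjusted p = 0.371). In the authors' deposited table Slc31a1 rose by 0.40 (adjusted p = 0.00459), Stim1 rose by 0.37 (adjusted p = 0.0143) and Calm2 fell by 0.30 (adjusted p = 0.0360). Of 11 regulators of the Na,K-ATPase 3 were tested, with Fxyd5 at 0.19 (SE 0.07, adjusted p = 0.235) and Fxyd6 at -0.28 (SE 0.12, adjusted p = 0.316).

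The 9 members under the count filter held few footprints in either group. Atp6v1b1, the B isoform of kidney, held 20 counts over the sgNT libraries and 37 over the sgLTN1 libraries, Atp6v1e2 18 and 27, and Atp2c2 4 and 14. Atp13a4, Atp13a5, Atp1b4, Atp6ap1l, Atp6v0d2 and Atp6v1g3 held at most 6 counts in either group. For Atp6v0d2, the d isoform of osteoclasts and kidney, 1 count was seen in each group.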

How the data were processed

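Ribosome footprints of 3 sgNT and 3 sgLTN1 libraries of MIN6 cells were analysed from the authors' deposited table of raw counts per gene and from their deposited DESeq2 comparison (log2 fold changes, standard errors, Wald scores, p-values and a mean count signal per gene). Per the submitters' processing notes, build GRCm39 was used with STAR 2.7.11a, featureCounts 2.12.3, UMI-tools 1.1.2, fastp 0.23.4, Bowtie2 2.5.4, SAMtools 1.9 and DESeq2 1.38.3, with no role or order given. Their settings, the annotation, the use of strand and of multi-mapping footprints, and the footprint lengths were not given in the sources used here.

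Counts were fitted with edgeR 4.0.16 in R 4.3.3 (quasi-likelihood test, TMM scaling, filterByExpr, group as the only term), with p-values adjusted by Benjamini-Hochberg over all 12782 tested genes, and the script was tested on simulated data. Total counts per library ran from 4373467 to 11198735. CPM values were computed by edgeR from these counts and the TMM factors. A loess trend of log2 fold change on log2 CPM (span 0.5) was subtracted where stated. Alternatives were DESeq2 size factors, total counts, no filter, DESeq2 1.42.0, the replicate number as a block, and each library left out. Leaving out both libraries 3 was added after seeing the data. The members and lists were chosen with earlier results of these data known. Named with values were the 2 members of each class with the highest mean CPM, members with an unadjusted p below 0.05, the highest and lowest log2 fold change of each class, untested members, the 2 smallest p-values of each partner list, and Ltn1. Other members, Tcirg1, Ostm1 and Tmem30a were named after their values were seen. Some members count in the totals but are not reported here by name. Levels per coding length were planned and were not made, since no coding lengths were used here.

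The replicate numbers of the titles were checked as pairs. Over all tested genes, deviations from the group means correlated at -0.05, 0.07 and 0.09 for numbers 1, 2 and 3. For unlike numbers the correlations ran from -0.12 to 0.10. The check includes scarce genes and cannot decide whether like-numbered libraries share a source. The main fit did not pair the libraries, since no pairing is stated. With the number as a block 8 members passed, where 609 of all 12782 tested genes (4.76%) did. Libraries of a group differed by more than counting error (chi-square over its degrees of freedom 2.40 to 6.49).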

Additional observations from a re-analysis of the deposited data

How the results depend on the processing

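No pump gene passed with TMM, DESeq2 size factors or total counts. The count was 1 with no filter (Atp13a3), 5 with the DESeq2 test, 8 with the replicate block and 5 without both libraries 3, and it ran from 0 to 4 when 1 library was left out, with 4 only without sgLTN1 library 3. Members with an adjusted p numbered 49 with no filter, 27 with the DESeq2 test, 40 with the block and 39 without both libraries 3. Over all genes 23 passed (0.18%), against 42 with total counts (0.329%) and 222 of 20854 with no filter (1.06%). With the DESeq2 test 227 of 2697 passed (8.42%), and with the replicate block 609 of 12782 (4.76%). Without both libraries 3, 519 of 13345 passed (3.89%). Leaving out 1 library gave 4 (0.0317%, sgLTN1 library 2) to 333 (2.47%, sgLTN1 library 3). The block is given for completeness, since the numbers share no stated source. The cause of these shifts was not tested.

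The P-type median stayed above 0 under every alternative, from 0.18 with total counts to 0.32 without sgLTN1 library 3. With total counts the median of all tested genes moved by -0.0762. The V0 median was 0.021 with total counts and 0.0223 with the abundance trend removed, the V1 median -0.11 and -0.0813, and the accessory median -0.0427 with the trend removed. The beta subunit median was 0.0216 with total counts and -0.00302 with the trend removed. Members near 0 changed sign, none of them called. With total counts these were Atp6v0b (-0.00676), Atp6v0e2 (-0.041), Atp6v1d (-0.069), Atp6v1f (-0.0427), Atp6v1h (-0.0326), Atp6ap2 (-0.00976) and Atp2b3 (-0.0172). Without both libraries 3 they were Atp6v0e2 (-0.0264) and Atp6v1g2 (-0.0596), and with the replicate block Atp2b3 (-0.00053). With the trend removed 33 of 40 members kept their direction, and those that did not were Atp6v0c (-0.0256), Atp6v0e2 (-0.00181), Atp6v1d (-0.0353), Atp6v1h (-0.0246), Atp6ap2 (-0.101), Atp1b1 (-0.0198) and Atp13a1 (-0.0131). With 1 library left out, values ran from -0.047 to 0.0691 for Atp6v1d, -0.0504 to 0.0146 for Atp6v1e1, -0.0367 to 0.143 for Atp6v1f, -0.0246 to 0.299 for Atp6v1g2, -0.25 to 0.0732 for Atp1b2, and -0.121 to 0.311 for Atp2b3. Depth limits the scarce members most, with 22 counts for Atp6v0a4 and 25 for Atp6v1c2 over the sgNT libraries.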
